A study of Homo sapiens with 43 samples.

Results

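The genes described here are 36 megakaryocyte and platelet genes, taken by name from a list and read in the RNA count table of a series on the splicing factor U2AF1. The table holds 58347 gene entries, each of the 36 matched 1 entry, and 33 of the 36 were abundant enough to be tested among 21300 genes. The list was not chosen by a threshold on these counts, but it was proposed with earlier results of these data known.

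All libraries came from HEL, an established human erythroleukemia line that expresses erythroid and megakaryocytic genes, and every group came from a line with a stably introduced U2AF1 construct. The 6 groups crossed 3 lines, carrying wild-type U2AF1 (WT), U2AF1 with S34F or U2AF1 with Q157R, with doxycycline: uninduced, or induced at 1 µg/ml for 48 hours. No line without a construct was analysed here, and the labels do not say whether a line was 1 clone. Replicates are labelled as biological, with no word on whether cultures were separate, and p-values then reflect only the spread between these libraries, which may be technical. RNA-seq after rRNA depletion gave 2 libraries for each of the 3 induced groups and for WT without doxycycline, and 1 library each for S34F and Q157R without it. U2AF1 is the small subunit of U2AF, which binds the intron's last bases before an exon, and S34F and Q157R are changes found in myeloid malignancies.

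Megakaryocytes are the large bone marrow cells that shed platelets. They make the receptors with which platelets stick to injured vessel walls, the enzymes and receptors of thromboxane and thrombin signalling, the granule proteins that platelets release, and a specialised tubulin and integrin-activating machinery. Integrin alpha-IIb (ITGA2B) with integrin beta-3 (ITGB3) forms the platelet fibrinogen receptor, a classic marker of the lineage.

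To show what sequence lies ahead of the members that the results turn on, the bases before their RefSeq starts (GRCh38.p14) are printed for a few members that had an entry in the promoter table. They are those called lower in induced S34F than in induced WT without the replicate block, or lower in the difference of induction with it. The other members that the blocked fit called lower in induced S34F than in induced WT are not printed. ALOX12 (arachidonate 12-lipoxygenase) is shown at chr17:6995799-6996048, plus strand, FERMT3 (kindlin-3) at chr11:64206471-64206677, plus strand, ITGA2B at chr17:44389650-44389899, minus strand, RAB27B (a GTPase of granule secretion) at chr18:54717607-54717856, plus strand, and TBXA2R (the thromboxane receptor) at chr19:3606876-3607125, minus strand. Each stretch has 250 bases, except 207 for FERMT3, where bases inside the annotated gene were left out. Capitals mark GATAA and GGAAG on either strand, so that TTATC and CTTCC are capitals too. These are selected forms of the letters that GATA factors and ETS factors bind. Other forms, such as GATAG, or GGAA before a base other than G, stay in lower case.
ALOX12: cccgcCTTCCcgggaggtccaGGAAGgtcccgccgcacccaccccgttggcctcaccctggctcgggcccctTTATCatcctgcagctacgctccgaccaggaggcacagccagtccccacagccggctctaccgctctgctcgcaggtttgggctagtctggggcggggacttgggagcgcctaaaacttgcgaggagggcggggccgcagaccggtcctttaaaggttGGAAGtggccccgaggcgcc
FERMT3: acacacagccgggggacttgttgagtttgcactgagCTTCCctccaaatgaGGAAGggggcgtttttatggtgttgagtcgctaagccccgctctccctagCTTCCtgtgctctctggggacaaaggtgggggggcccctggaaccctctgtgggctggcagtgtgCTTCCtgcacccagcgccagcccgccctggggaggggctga
ITGA2B: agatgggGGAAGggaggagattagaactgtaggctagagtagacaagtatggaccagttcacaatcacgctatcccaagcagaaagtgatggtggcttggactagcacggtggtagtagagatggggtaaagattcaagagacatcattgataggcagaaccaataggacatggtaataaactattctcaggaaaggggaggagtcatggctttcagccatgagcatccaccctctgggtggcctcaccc
RAB27B: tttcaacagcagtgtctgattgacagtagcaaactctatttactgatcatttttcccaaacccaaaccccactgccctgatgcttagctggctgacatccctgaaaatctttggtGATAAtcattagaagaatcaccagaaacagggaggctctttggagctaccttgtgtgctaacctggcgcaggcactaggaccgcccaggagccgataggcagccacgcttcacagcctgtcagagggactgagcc
TBXA2R: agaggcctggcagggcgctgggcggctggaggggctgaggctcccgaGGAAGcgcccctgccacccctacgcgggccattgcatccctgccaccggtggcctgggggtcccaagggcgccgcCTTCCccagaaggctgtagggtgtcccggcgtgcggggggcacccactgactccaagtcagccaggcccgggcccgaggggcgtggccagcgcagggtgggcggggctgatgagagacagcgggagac

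ALOX12 holds 1 GATAA and 3 GGAAG, FERMT3 0 and 4, ITGA2B 0 and 1, RAB27B 1 and 0, and TBXA2R 0 and 2, in the bases printed. For FERMT3, the bases left out hold 1 GATAA, and so does its other promoter entry, which is not printed. RAB27B also has another entry. Over all 35116 promoter entries, 20.4% hold a GATAA and 65.1% a GGAAG in the 250 bases. Of 46 entries that belong to 29 members, 37% and 80.4% do. These matches describe letters, and no binding was measured at them. Other forms were not counted. The printed bases of ITGA2B and of RAB27B hold GATAG and GGAAA, counting either strand. A low count of GATAA or GGAAG therefore does not show that letters bound by GATA or ETS factors are missing. ITGB3, VWF, PF4, MYL9, GP1BA, SRGN and F2R had no entry.

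Gene counts per RNA-seq library ranged from 22392303 to 40370092, and levels are given as CPM (gene counts scaled to a common library size with TMM). The members together held 0.752% to 1.03% of the gene counts. The share of reads that the counting assigned to no feature was 33.5% and 33.7% in induced S34F. It was 22.7% in both induced WT libraries, 23.2% and 27% in induced Q157R and 19% to 20.6% in uninduced libraries. Whether reads in introns of annotated genes fall in this share is not given in the sources used here. This share moves with the S34F comparison, and its part in the results below was not tested. U2AF1 itself stood at 11 to 22.1 CPM over all 10 libraries; a near-identical copy of the gene in this genome build can take or void its reads, so this level is no check of induction.

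HEL cells carried most of these transcripts, at very unequal levels. Per kilobase of exon, the most abundant members were THBS1 (thrombospondin-1, an alpha-granule protein) with a mean of 253 CPM per kb, ITGA2B with 219, PLEK (pleckstrin, a substrate of protein kinase C in platelets) with 209, FERMT3 with 109 and MMRN1 (multimerin-1, which carries factor V in granules) with 106. Of the 36 members, 28 had a mean log2 CPM of at least 3. At the other end, PF4 (platelet factor 4, an alpha-granule chemokine) had 0 to 19 counts per library and a mean of 0.419 CPM per kb. PPBP (the precursor of another platelet chemokine), 4913 bases away on chromosome 4, had a mean of 56.3 CPM per kb. PF4V1, a near-identical copy of PF4, had 0 or 1 count.

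3 members were too low to test. P2RY12 (the ADP receptor blocked by clopidogrel) had 0 to 5 counts per library, and MYL9 (a myosin light chain) 0 or 1. GP1BB (glycoprotein Ib beta) had 0 counts in all 10 libraries. In GENCODE 29 all of the GP1BB exon bases also lie in a readthrough gene, SEPT5-GP1BB, and 64.8% lie in SEPT5, and how reads shared by genes were assigned is not given in the sources used here. A count of 0 therefore does not show that the transcript was missing. Other members below a mean log2 CPM of 3 were CLEC1B (the podoplanin receptor, 38 to 186 counts), CD36 (a thrombospondin and lipid receptor, 59 to 299), GP5 (glycoprotein V, 122 to 360) and F13A1 (factor XIII subunit A, 50 to 1029).

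The defining megakaryocyte markers set the label against the data: of 8 (ITGA2B, ITGB3, GP1BA, GP9, PF4, PPBP, TUBB1 and VWF), 7 had at least 462 counts in every library and PF4 did not. The cells also carried erythroid transcripts, with HBG2 (gamma-globin) at 194 to 753 CPM. Of the markers of other blood cells, MPO had 0 to 5 counts, CD14 0 to 9 and CD3E 0 to 4 per library. LYZ (lysozyme) had 544 to 1551, ITGAM (integrin alpha-M) 124 to 1239 and CSF1R (the receptor of a macrophage growth factor) 23 to 367. These are a few of the markers listed. All 14 monocyte and granulocyte markers together summed to between 195 CPM (uninduced WT) and 274 CPM (induced Q157R) per library.

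**Figure D1:**
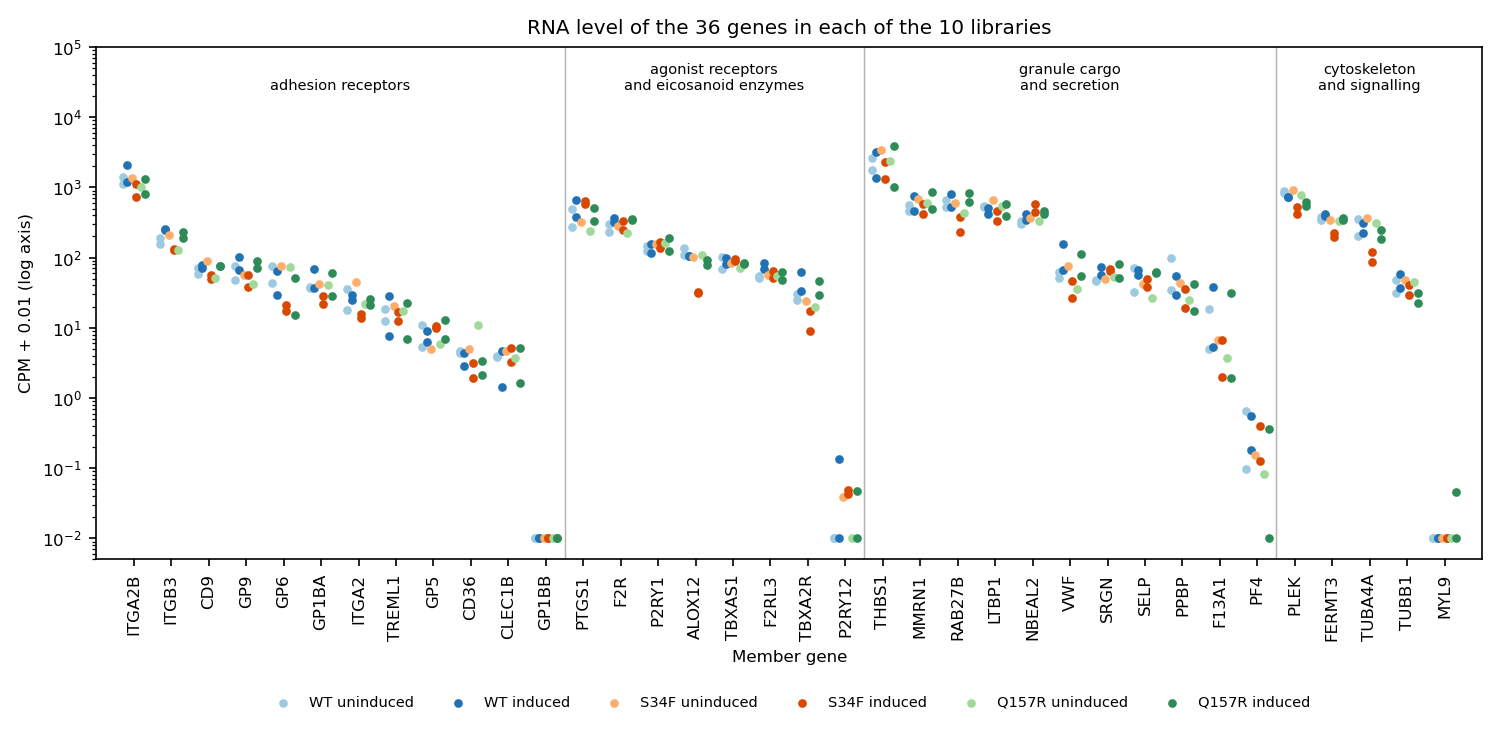
RNA level of each of the 36 members (x axis, grouped by role and ordered by mean) in each of the 10 libraries (points, coloured by group), as CPM + 0.01 on a log axis. THBS1 reached 3914 CPM in a library of induced Q157R, whereas GP1BB was at 0 counts in all libraries; the ALOX12 points of induced S34F lie below those of all other groups.

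Between induced S34F and induced WT cells, ALOX12 was 3.24-fold lower, ITGB3 1.93-fold lower and FERMT3 1.92-fold lower, and these 3 of the 33 tested members passed the test (edgeR quasi-likelihood test, adjusted p under 0.05 over all genes), all downward. None was called higher, where 0.681% of all genes were. By role, the calls were 1 of 11 tested adhesion receptors, 1 of 7 agonist receptors and eicosanoid enzymes, 0 of 11 granule genes and 1 of 4 genes of cytoskeleton and signalling. Over all genes, 0.991% were called lower, and over protein-coding genes alone 1.53%, beside 9.09% of the tested members.

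Of the 33 members, 26 had a negative and 7 a positive log2 fold change, with a median of -0.50 beside 0.00 for all genes tested and -0.16 for the 13602 protein-coding genes. In replicate 1 alone the median was -0.52 and in replicate 2 -0.48. Both induced S34F libraries lay below both WT libraries for 16 members and above them for 2 (GP5 and NBEAL2), and 15 overlapped. Over all genes, 27.3% lay below and 28.9% above in this way. The CPM summed over the members was 7316 and 6658 in induced S34F, 10031 and 9195 in induced WT and 10395 and 7517 in induced Q157R. Of these sums, THBS1 alone held 2293 and 1302 in S34F, 3167 and 1342 in WT and 3914 and 1002 in Q157R. In bulk RNA, fewer cells with a transcript and less of it per cell cannot be told apart.

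Libraries with the same replicate number deviated from their group means together, and the fit that takes the replicate number as a block called 14 members, all lower: ITGA2B, ITGB3, GP9, GP6, CD9, TBXA2R, ALOX12, PPBP, VWF, RAB27B, TUBB1, TUBA4A, PLEK and FERMT3. That is 42.4% of the tested members, where the same fit called 12.9% of all genes and 19.3% of protein-coding genes lower. No member was called higher, where 9.56% of all genes were. By role it called 5 adhesion receptors, 2 agonist receptors and enzymes, 3 granule genes and all 4 tested genes of cytoskeleton and signalling. Without the block, DESeq2 called 8 members, the 3 above with TBXA2R, VWF, RAB27B, TUBA4A and PLEK. It called 1612 genes in either direction, beside 356 in the unblocked edgeR fit. Without the block and without a filter on low counts edgeR called 14 members, and 2410 genes in either direction. These 14 members differ from the blocked 14. They include ITGA2, GP1BA and F13A1 and leave out CD9, PPBP and TUBB1. In the edgeR fit with the filter and no block, leaving out any 1 of the 4 libraries compared left 0 members and 0 genes called.

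**Figure D2:**
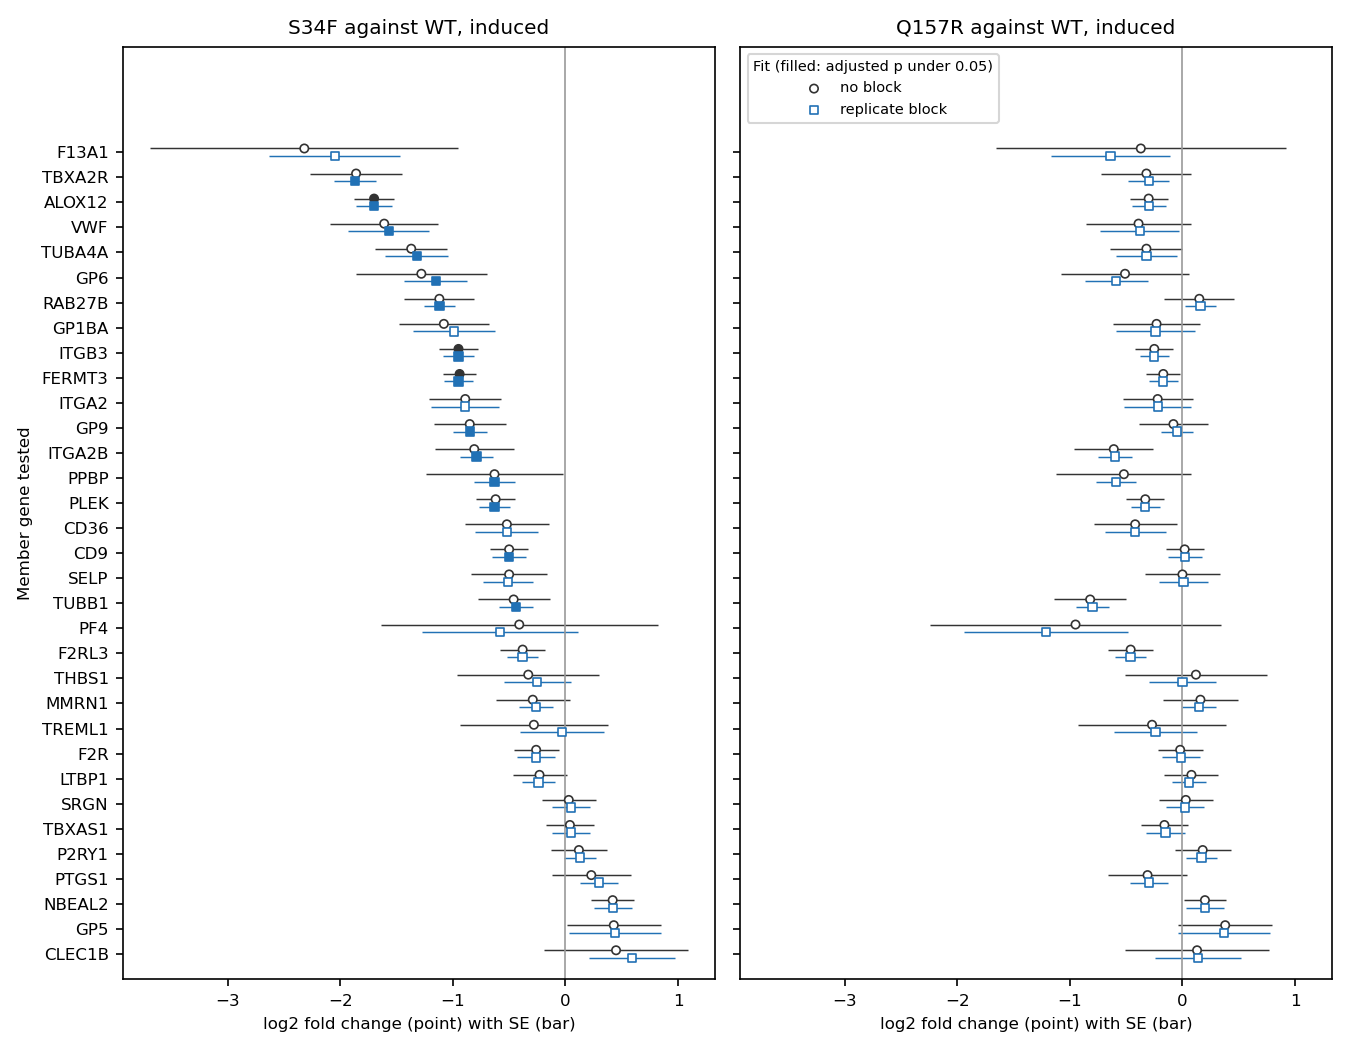
Log2 fold change (point) with its SE (bar) of the 33 tested members in induced S34F against WT (left) and induced Q157R against WT (right), fitted without a block (circles) or with the block (squares), with filled symbols where the adjusted p was under 0.05. Filled symbols stand only in the left panel: 3 circles and 14 squares, all below 0.

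Among the adhesion receptors, ITGB3 was called lower in induced S34F in both fits, and ITGA2B, GP9, GP6 and CD9 in the blocked fit and not in the unblocked one. ITGB3 stood at 253 and 245 CPM after induction of WT, 127 and 131 after that of S34F and 229 and 190.2 after that of Q157R, against 189 and 158 (WT), 212 (S34F) and 127 (Q157R) without doxycycline. The induced S34F libraries were the lowest, together with uninduced Q157R, and the groups of induced S34F and induced WT did not overlap. ITGB3 (ENSG00000259207.7, chromosome 17, 47253846 to 47311816) changed by -0.95 ± 0.17 (log2, SE; edgeR adjusted p = 0.0448), and by -0.95 ± 0.14 with the block (edgeR adjusted p = 0.00124). Of ITGB3, 51.6% of the exon bases are shared on the same strand with AC068234.1, which had 0 counts in all libraries. How reads shared by genes were assigned is not given, and their part in the ITGB3 level was not tested.

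ITGA2B stood at 1183 and 2058 CPM after induction of WT, 736 and 1116 after that of S34F and 797 and 1324 after that of Q157R, against 1107 and 1404 (WT), 1377 (S34F) and 1028 (Q157R) without doxycycline. The highest library was replicate 2 of induced WT, and replicate 2 was above replicate 1 in all 4 groups that had both. ITGA2B (ENSG00000005961.17, chromosome 17, 44372180 to 44389505) differed by -0.81 ± 0.35 between S34F and WT without the block (edgeR adjusted p = 0.214) and by -0.79 ± 0.15 with it (edgeR adjusted p = 0.00428). The unblocked value was -0.38 without replicate 2 of WT and -0.53 without replicate 1 of S34F.

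GP9 stood at 65.8 and 103 CPM after induction of WT, 37.6 and 55.7 after that of S34F and 70.6 and 88.5 after that of Q157R, against 47.8 and 74.6 (WT), 56.5 (S34F) and 42.2 (Q157R) without doxycycline. GP9 is the glycoprotein IX chain of the von Willebrand factor receptor. Within each replicate number it was lower in S34F, by -0.81 and -0.88 on the log2 scale, and with the block the change was -0.85 ± 0.15 (edgeR adjusted p = 0.0028, against 0.161 without). Its unblocked value was -0.52 without replicate 2 of WT. GP1BA stood at 68.3 and 36.4 CPM after induction of WT, 21.6 and 28.1 after that of S34F and 60.8 and 28.7 after that of Q157R, against 38.5 and 36.7 (WT), 42.4 (S34F) and 40.6 (Q157R) without doxycycline. GP1BA, the chain of the same receptor that binds von Willebrand factor, had a log2 difference of -1.08 ± 0.40 (edgeR adjusted p = 0.159, and 0.0941 with the block), and its 2 replicate numbers gave -1.66 and -0.37.

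GP6 stood at 64.5 and 29 CPM after induction of WT, 21.4 and 17.1 after that of S34F and 50.6 and 15.3 after that of Q157R, against 76.1 and 43 (WT), 75.3 (S34F) and 73.4 (Q157R) without doxycycline. The collagen receptor GP6 was low in both induced S34F libraries and in replicate 2 of induced Q157R, and with the block its change was -1.15 ± 0.28 (edgeR adjusted p = 0.0223, against 0.228 without). The unblocked value was -0.59 without replicate 1 of WT. ITGA2 stood at 25.1 and 29.5 CPM after induction of WT, 13.7 and 15.8 after that of S34F and 21.2 and 25.7 after that of Q157R, against 35.6 and 17.7 (WT), 44.6 (S34F) and 21.5 (Q157R) without doxycycline. ITGA2, the alpha chain of the collagen integrin, was lowest in the 2 induced S34F libraries, with a difference from WT of -0.89 ± 0.32 (edgeR adjusted p = 0.149, and 0.0666 with the block). CD9 stood at 71.7 and 77.9 CPM after induction of WT, 50.1 and 55.9 after that of S34F and 75.2 and 76.1 after that of Q157R, against 72 and 58 (WT), 89 (S34F) and 51.7 (Q157R) without doxycycline. CD9, a tetraspanin abundant on platelets, changed by -0.50 ± 0.15 in the blocked fit (edgeR adjusted p = 0.0382, against 0.143 without).

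The remaining tested adhesion genes gave no call in either fit. TREML1 (a receptor stored in alpha granules) ranged from 6.92 to 28.1 CPM and had log2 differences of -0.72 in replicate 1 and 0.72 in replicate 2. CLEC1B (1.4 to 5.08 CPM) had a log2 difference of 0.45 ± 0.64 (SE), GP5 (5.04 to 12.8 CPM) of 0.43 ± 0.42 and CD36 (1.94 to 10.9 CPM) of -0.52 ± 0.37.

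Among the agonist receptors and eicosanoid enzymes, ALOX12 was called lower against WT with and without the block and TBXA2R with it, and the others gave no call in these fits. ALOX12 stood at 104 and 104 CPM after induction of WT, 32.5 and 31.5 after that of S34F and 91.6 and 77.3 after that of Q157R, against 110.4 and 138 (WT), 102 (S34F) and 107 (Q157R) without doxycycline. The 2 induced S34F libraries were below all 8 others, which ranged from 77.3 to 138 CPM. ALOX12, which makes 12-HETE from arachidonic acid in platelets (ENSG00000108839.11, chromosome 17, 6996065 to 7010736), changed by -1.70 ± 0.18 (edgeR adjusted p = 0.0342), and by -1.70 ± 0.16 with the block (edgeR adjusted p = 0.000236). Antisense ALOX12-AS1 shares 18.8% of its exon bases, at 1.89 to 7.76 CPM, and the strand setting of the counting is not given in the sources used here.

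TBXA2R stood at 33.3 and 61.9 CPM after induction of WT, 8.99 and 17.1 after that of S34F and 29.4 and 46.7 after that of Q157R, against 25.1 and 30.6 (WT), 24.4 (S34F) and 19.6 (Q157R) without doxycycline. TBXA2R, through which thromboxane A2 activates platelets, was lowest in the 2 induced S34F libraries, with replicate 2 above replicate 1 in every group that had both. TBXA2R (ENSG00000006638.11, chromosome 19, 3594506 to 3606840) differed by -1.86 ± 0.41 without the block (edgeR adjusted p = 0.061) and by -1.87 ± 0.19 with it (edgeR adjusted p = 0.000335). The 2 replicate numbers gave -1.88 and -1.85.

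PTGS1 stood at 383 and 654 CPM after induction of WT, 581 and 639 after that of S34F and 327 and 508 after that of Q157R, against 273 and 485 (WT), 322 (S34F) and 238 (Q157R) without doxycycline. PTGS1 (cyclooxygenase-1, the target of aspirin) makes the prostaglandin precursor of thromboxane, and its difference from WT was 0.23 ± 0.35 (edgeR adjusted p = 0.717, and 0.217 with the block). TBXAS1, the thromboxane synthase, ranged only from 69.2 to 101 CPM (0.04 ± 0.21). The thrombin receptors F2R (221 to 372 CPM) and F2RL3 (48.3 to 83 CPM) gave -0.26 ± 0.20 and -0.38 ± 0.20, and the ADP receptor P2RY1 (117 to 188 CPM) 0.12 ± 0.25, none called in either fit.

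Among the granule genes, RAB27B, VWF and PPBP were called lower in S34F with the block and not in the unblocked edgeR fit, while DESeq2 called RAB27B and VWF without a block. RAB27B stood at 521 and 799.7 CPM after induction of WT, 230.2 and 379.6 after that of S34F and 623 and 841 after that of Q157R, against 519.9 and 665 (WT), 607 (S34F) and 426 (Q157R) without doxycycline. Both induced S34F libraries were below all 8 others. RAB27B (ENSG00000041353.9, chromosome 18, 54717860 to 54895516), which docks granules at the plasma membrane, differed by -1.12 ± 0.31 without the block (edgeR adjusted p = 0.0928) and by -1.12 ± 0.14 with it (edgeR adjusted p = 0.000692).

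VWF stood at 67.3 and 154 CPM after induction of WT, 26.6 and 45.7 after that of S34F and 54.6 and 114 after that of Q157R, against 62.4 and 50.6 (WT), 75 (S34F) and 35.5 (Q157R) without doxycycline. Von Willebrand factor was highest in replicate 2 of induced WT and of induced Q157R, and its change in S34F was -1.61 ± 0.48 without the block (edgeR adjusted p = 0.106) and -1.57 ± 0.36 with it (edgeR adjusted p = 0.0268). The unblocked value was -0.92 without replicate 2 of WT. PPBP stood at 29.7 and 55.4 CPM after induction of WT, 19.2 and 35.9 after that of S34F and 17.2 and 42.3 after that of Q157R, against 34.3 and 99.7 (WT), 43.7 (S34F) and 24.8 (Q157R) without doxycycline. PPBP overlapped between induced S34F and induced WT, and replicate 2 exceeded replicate 1 in all 4 groups with both. The 2 replicate numbers each gave -0.63 (edgeR adjusted p = 0.0276 with the block, 0.56 without). The unblocked PPBP value ran from -1.15 without replicate 2 of S34F, through -1.01 without replicate 1 of WT and -0.24 without replicate 1 of S34F, to -0.13 without replicate 2 of WT.

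LTBP1 stood at 511 and 412 CPM after induction of WT, 460.1 and 328 after that of S34F and 579 and 395 after that of Q157R, against 542 and 531 (WT), 669 (S34F) and 551 (Q157R) without doxycycline. LTBP1, which holds latent TGF-beta in the granule, differed from WT by -0.23 ± 0.24 and was not called here. THBS1 (1002 to 3914 CPM), MMRN1 (417 to 861 CPM), SELP (P-selectin, 26.4 to 71.5 CPM) and SRGN (serglycin, 45.9 to 80.9 CPM) gave log2 differences of -0.33 ± 0.63, -0.29 ± 0.33, -0.50 ± 0.34 and 0.03 ± 0.24. NBEAL2, needed to form alpha granules (302 to 579.7 CPM), was higher in both induced S34F libraries (439 and 579.7 CPM) than in both of WT (420.4 and 339 CPM), by 0.42 ± 0.19 (edgeR adjusted p = 0.233, and 0.0888 with the block). F13A1 ranged from 1.9 to 37.9 CPM, and its difference of -2.32 ± 1.37 was not called.

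All 4 tested genes of cytoskeleton and signalling were called lower in S34F with the block, and FERMT3 also without it. FERMT3 stood at 392 and 414 CPM after induction of WT, 196 and 222 after that of S34F and 369 and 346 after that of Q157R, against 347 and 383 (WT), 338 (S34F) and 331 (Q157R) without doxycycline. FERMT3, the kindlin that activates integrins in blood cells (ENSG00000149781.12, chromosome 11, 64206678 to 64223886), was below all 8 other libraries in both induced S34F libraries and changed by -0.94 ± 0.15 (edgeR adjusted p = 0.0443, and 0.00109 with the block). TUBA4A stood at 312 and 223 CPM after induction of WT, 86 and 121 after that of S34F and 246 and 183 after that of Q157R, against 350.4 and 199.9 (WT), 364 (S34F) and 306 (Q157R) without doxycycline. TUBA4A, an alpha-tubulin of platelets, was also lowest in the 2 induced S34F libraries, with a difference from WT of -1.37 ± 0.32 without the block (edgeR adjusted p = 0.0669) and -1.32 ± 0.28 with it (edgeR adjusted p = 0.0155).

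PLEK stood at 718 and 725 CPM after induction of WT, 521 and 418 after that of S34F and 617 and 534 after that of Q157R, against 897 and 826 (WT), 906 (S34F) and 769.9 (Q157R) without doxycycline. PLEK changed by -0.63 ± 0.14 with the block (edgeR adjusted p = 0.00806, against 0.0931 without). TUBB1 stood at 58.1 and 36.9 CPM after induction of WT, 40.5 and 28.8 after that of S34F and 31.1 and 22.8 after that of Q157R, against 48.3 and 31.2 (WT), 47.2 (S34F) and 44.3 (Q157R) without doxycycline. TUBB1, the beta-tubulin of the platelet marginal band, was lowest in replicate 2 of induced Q157R rather than in S34F, and its change of -0.44 ± 0.15 against WT was called with the block (edgeR adjusted p = 0.0488, against 0.416 without). The unblocked TUBB1 value was -0.09 without replicate 1 of WT, -0.23 without replicate 2 of S34F, -0.72 without replicate 1 of S34F and -0.77 without replicate 2 of WT. ATP5F1E on the opposite strand covers 34% of its exon bases, at 34.5 to 84.5 CPM, and STK16 covers 15.4% of those of TUBA4A.

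**Figure D3:**
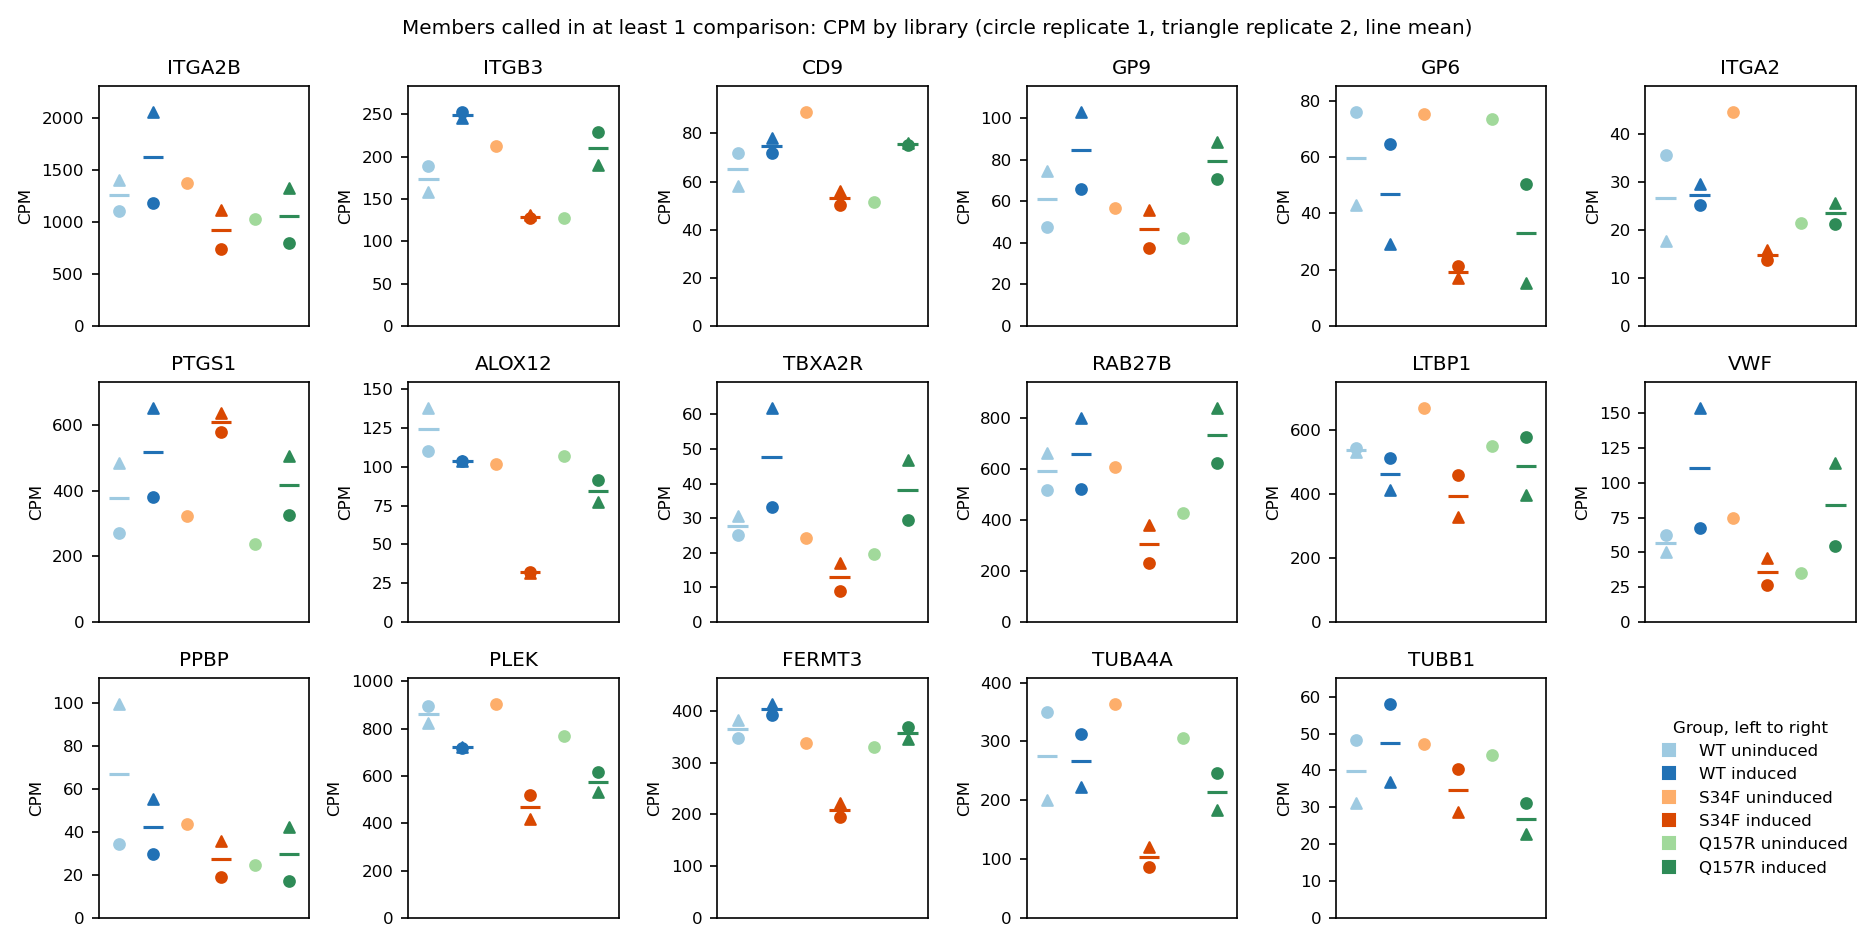
CPM of the 17 members called in at least 1 comparison with or without the block, by library (circles replicate 1, triangles replicate 2) and group, with a line at the mean of groups that had 2 libraries; each y axis starts at 0. Both induced S34F points of ALOX12, FERMT3, RAB27B and TUBA4A lie below all other libraries, while for GP6 and TUBB1 replicate 2 of induced Q157R is lower.

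Q157R gave no call among the members against WT. Of 33 tested members, 0 passed (edgeR; 1 below 0.05 before adjustment, 0 by DESeq2), while 0% of all genes were called. With the block 0 members and 0.0188% of genes were called. Without the block the median log2 fold change was -0.23, beside -0.01 for all genes and -0.03 for protein-coding genes. Of the members, 23 (69.7%) were negative, beside 55% of protein-coding genes. Among members with a mean log2 CPM of at least 3, TUBB1 had the most negative difference, at -0.82 ± 0.32 (edgeR adjusted p = 1, and 0.15 with the block), ITGA2B stood at -0.61 ± 0.35 and ALOX12 at -0.30 ± 0.17. Because both mutants are compared with the same WT libraries, their values are given side by side and not set against each other.

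The direct contrast of S34F with Q157R called ALOX12 lower, by -1.40 ± 0.18 (edgeR adjusted p = 0.0385), as 1 of 33 members, with 0.258% of all genes called lower. With the block 8 members were lower, where 11.5% of all genes were: ALOX12, ITGB3, GP9, CD9, RAB27B, TUBA4A, TBXA2R and FERMT3. RAB27B changed by -1.29 ± 0.14 (edgeR adjusted p = 0.000463), TBXA2R by -1.57 ± 0.19 (edgeR adjusted p = 0.000625), FERMT3 by -0.78 ± 0.13 (edgeR adjusted p = 0.00298) and ITGB3 by -0.70 ± 0.14 (edgeR adjusted p = 0.00579). PTGS1 was higher, by 0.60 ± 0.17 (edgeR adjusted p = 0.0283), where 8.49% of all genes were called higher in that fit. ITGA2B, with -0.18 ± 0.15, was not called. Leaving out any 1 library left 0 members called without the block.

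Induction asked what doxycycline changed within each line. In the S34F line ALOX12 changed by -1.66 ± 0.21 (edgeR adjusted p = 0.034), as 1 of 33 members called in this fit, with 1.26% of all genes called lower. With the block 14 members fell, where 11% of all genes did: ITGA2B, ITGB3, ITGA2, GP9, GP6, CD9, TBXA2R, ALOX12, PPBP, RAB27B, LTBP1, TUBA4A, PLEK and FERMT3. ITGA2 changed by -1.56 ± 0.37 (edgeR adjusted p = 0.0225), TUBA4A by -1.62 ± 0.35 (edgeR adjusted p = 0.0188), PPBP by -1.32 ± 0.22 (edgeR adjusted p = 0.00324) and LTBP1 by -0.61 ± 0.19 (edgeR adjusted p = 0.0407). Over all fits tried, with and without the block, PPBP ran from -1.32 to -0.28 and GP9 from -0.58 to -0.02. ITGA2 ran from -1.69 to -1.49. The uninduced S34F group is 1 library and borrows its spread from the other groups, and without either induced library no gene was called.

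Induction gave no member calls in the WT line (edgeR, 0 of 33 tested; 2 with an unadjusted p under 0.05, DESeq2 0), with 0% of all genes called, and none with the block, where 0.418% of genes were called. Without the block, 23 of 33 members were positive in the WT line, with a median of 0.20 beside 0.01 for all genes. Negative values made up 30.3% of the members, beside 52.7% of protein-coding genes. ITGB3 stood at 0.52 ± 0.17 (edgeR adjusted p = 0.77). In the Q157R line the members called were again 0 of 33 (edgeR; 5 with an unadjusted p under 0.05), with 0% of all genes called, and 0 with the block, where 0.263% of genes were called. DESeq2 called 1 member and 75 genes there. The member was CD36, at -2.02 on the log2 scale, named after its values were seen. It stood at 10.9 CPM in the single uninduced Q157R library and at 3.31 and 2.12 CPM in the induced ones.

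Whether induction acted differently in the S34F and WT lines was tested directly. Without the block 0 of 33 members passed in edgeR (10 with an unadjusted p under 0.05), with 0% of all genes called. DESeq2 called 1 member, ALOX12, and 27 genes. With the block 5 members were lower, TBXA2R by -2.02 ± 0.29 (edgeR adjusted p = 0.0205), RAB27B by -1.43 ± 0.22 (edgeR adjusted p = 0.0224), ALOX12 by -1.41 ± 0.25 (edgeR adjusted p = 0.0352), ITGB3 by -1.18 ± 0.22 (edgeR adjusted p = 0.0384) and ITGA2B by -1.23 ± 0.23 (edgeR adjusted p = 0.0432), where 0.554% of all genes were called lower. Of these, ALOX12 was called lower within the S34F line in both fits, and the other 4 with the block. For this difference, induction in S34F and S34F against Q157R, the shares called lower over protein-coding genes alone are not given. In induced S34F against WT with the block that share was 19.3%, beside 12.9% of all genes.

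Before induction the lines gave no member calls in edgeR with the filter on low counts. S34F against WT called 0 of 33 members without the block (edgeR; 0 with an unadjusted p under 0.05; DESeq2 0) and 0 with it, and 0% of all genes in both fits. ALOX12 differed there by -0.29 ± 0.22. Q157R against WT also called 0 members (edgeR; 1 with an unadjusted p under 0.05; DESeq2 0), 0 with the block and 0% of all genes in both fits. With 1 library in each uninduced mutant group, these contrasts rest on a spread borrowed from the other groups.

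Replicate 2 differed from replicate 1 in a recurring way. F13A1 was higher in replicate 2 in all 4 groups with 2 libraries, by 1.70 to 3.98 on the log2 scale of CPM + 0.1, PPBP by 0.90 to 1.54 and TBXA2R by 0.29 to 0.92. THBS1 was lower in replicate 2 in all 4, by -1.97 to -0.56, as were GP6 (-1.72 to -0.32) and TREML1 (-1.87 to -0.43). In all, 9 of 33 tested members were higher and 10 lower in replicate 2 in all 4 groups, which is 57.6%, beside 38.6% of all genes tested. ALOX12, FERMT3 and ITGB3, the members that the unblocked edgeR fit called, kept within 0.32 of 0 in every group. So did PLEK and CD9, which that fit did not call. What a replicate number stands for is not given in the labels.

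**Figure D4:**
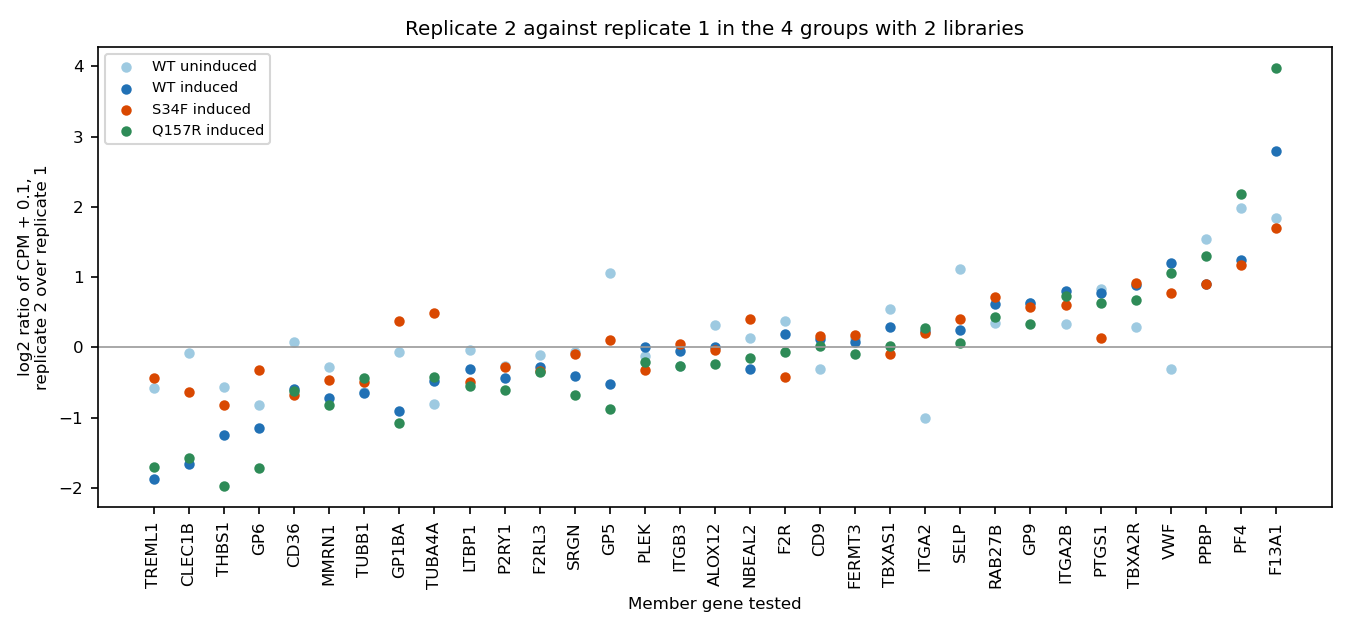
Log2 ratio of CPM + 0.1 between replicate 2 and replicate 1 (y axis) of the 33 tested members (x axis, ordered by median), with a point for each of the 4 groups that had 2 libraries. The 4 points of F13A1 run from 1.70 to 3.98 and those of THBS1 from -1.97 to -0.56.

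Of 82 other platelet genes in 5 categories, 76 were tested, and in induced S34F against WT 4 (beside 0.991% of all genes) were lower and 0 higher. They were TIMP3 (a metalloproteinase inhibitor, -2.20 ± 0.34), RASGRP2 (the exchange factor that activates RAP1, -1.53 ± 0.27), ACTN1 (alpha-actinin-1, -1.32 ± 0.17) and PTGER3 (a prostaglandin E2 receptor, -1.09 ± 0.17), with edgeR adjusted p-values of 0.0443, 0.0448, 0.0432 and 0.0443. With the block 22 were lower and 7 higher, where 12.9% of all genes were lower and 9.56% higher. Among 21 tested transcription factors of megakaryocytes, GFI1B, a repressor needed for megakaryocytes and red cells, changed by -1.49 ± 0.26 (edgeR adjusted p = 0.0448), and with the block 9 of the 21 were lower and 1 higher, beside the same shares of all genes and 19.3% of protein-coding genes lower. The block called GATA1 lower too, at -0.54 ± 0.13 (edgeR adjusted p = 0.0115), and RUNX1 at -0.64 ± 0.16 (edgeR adjusted p = 0.0171).

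Markers of other cell types were counted beside these results. Of 18 tested erythroid markers, 0 were called in S34F against WT without the block. With it 4 were lower (HBB, HBE1, HBG2 and CA1) and 1 higher (EPOR). That fit called 12.9% of all genes and 19.3% of protein-coding genes lower, and 9.56% of all genes higher. The erythroid markers summed to 2046 to 2677 CPM in induced S34F and 2004 to 2778 CPM in induced WT. The 8 defining megakaryocyte markers, which are members too, summed to 1008 to 1441 CPM in induced S34F and 1725 to 2689 CPM in induced WT. In induced Q157R they summed to 1261 to 1811 CPM. ITGA2B alone held 736 and 1116 CPM in induced S34F and 1183 and 2058 CPM in induced WT. Monocyte and granulocyte markers summed to 196 to 259.6 CPM in induced S34F and 231 to 265 CPM in induced WT. ITGAM was higher (1.49 ± 0.27, edgeR adjusted p = 0.0448), as 1 of 7 tested, beside 0.681% of all genes called higher. With the block ITGAM was higher and CSF1R lower, each 1 of 7, beside 9.56% of all genes higher and 12.9% lower. Lymphoid markers summed to 35.3 to 48 CPM and 26.1 to 52.7 CPM. KLRD1 was higher in both fits, as 1 of 7 tested, beside the same shares of all genes higher. Stromal, endothelial and epithelial markers summed to 142 to 149.7 CPM and 161 to 203 CPM, with none called without the block. With it COL1A1 was higher and KRT18 lower, each 1 of 7 tested, beside the same shares of all genes. The part of any of these in the members' values was not tested.

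CLIP, the sequencing of RNA crosslinked to U2AF1 or U2AF2, was read for the same members. Fractionated U2AF1 CLIP (freCLIP) was split by size into light (37 to 65 kD) and heavy (65 to 110 kD) complexes. In it 12 members were tested between S34F and WT: ALOX12, FERMT3, GP1BA, GP6, ITGA2, MYL9, P2RY12, TBXA2R, THBS1, TREML1, TUBA4A and TUBB1. Of these, MYL9 and P2RY12 were too low to test in RNA. The median log2 fold change of the 12 was 1.05 in the light and 0.17 in the heavy fraction. The medians over all genes are not given here. None was called in the light fraction (edgeR; 0 of 12, 0 with an unadjusted p under 0.05, DESeq2 0), where 0.337% of 6833 genes were called, and none in the heavy fraction (edgeR; 0 of 12, 0 with an unadjusted p under 0.05, DESeq2 0), where 0.132% were.

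In the examples below, the CLIP gene counts did not follow RNA abundance. The measures differ: RNA values of members are means over all 10 libraries per kb of exon. The CLIP counts are sums over induced WT libraries, not scaled by length. PLEK, with a mean of 209 CPM per kb in RNA, had 0 counts summed over 7 eCLIP libraries of induced WT cells, and ITGA2B, with 219 CPM per kb, had 16. GP1BA, with 16.1 CPM per kb, had 1428 and GP6, with 17.2, had 1400. ACTB (beta-actin) had 2, although its RNA level was 3150.1 CPM. Protein-coding genes above 5 CPM that overlap an expressed gene only on the opposite strand had a median of 173 eCLIP counts (2221 genes), and those that overlap no other expressed gene had 15 (7772 genes), at RNA medians of 44.6 and 48.2 CPM. GP6 overlaps such a gene, whereas GP1BA and MYL9 (705 eCLIP counts) overlap no expressed gene. The strand to which these reads were assigned is not given in the sources used here, so these are counts listed for the gene and are not read as binding to its RNA.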

How the data were processed

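RNA-seq, eCLIP and freCLIP gene counts were used as deposited by the authors: 34 of 43 samples, with 9 not analysed here. Per the submitters' processing notes the build was GRCh38.p10, and the tools they list, without roles, are HISAT2, STAR (2.5.3a and 2.7.0f), HTSeq, DESeq2, edgeR, SAMtools and cutadapt. The annotation and strand setting of the counting are not given in the sources used here. Gene IDs were matched to GENCODE 29 (58084 of 58347). Rows that name no gene stayed out of library sizes.

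All 10 RNA libraries were fitted together in edgeR 4.0.16 (R 4.3.3) with 1 mean per group, filterByExpr at a minimum count of 10, TMM scaling, quasi-likelihood tests and Benjamini-Hochberg adjustment over all tested genes, with a threshold of 0.05. freCLIP counts were tested the same way. Alternatives were a replicate block, RLE scaling, no filter, DESeq2 1.42.0 and each library left out. The fit without a block was tried on simulated counts with known changes, for induced S34F against WT and for the light freCLIP fraction. These counts had no replicate effect, and the block and the other alternatives were not tried in this way.

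Same-numbered libraries deviated from their group means together, with correlations of 0.211 to 0.652 over 6 pairs of groups (each pair of groups gives 1 value, since each group has 2 libraries). This pairing is read from the data, since the labels do not say what a number shares.

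The members and gene lists were chosen with earlier results of these data known. Full values are given for members called in any comparison with or without the block, and for GP1BA, and the others are given by range.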

Additional observations from a re-analysis of the deposited data

Results flagged for a closer look

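The effect of induction differed between the S34F and WT lines for 5 members in the test of the difference itself, with the replicate number as a block (edgeR). The log2 difference of induction in S34F minus WT was -2.02 for TBXA2R, -1.43 for RAB27B, -1.41 for ALOX12, -1.23 for ITGA2B and -1.18 for ITGB3. None of these passed in the same edgeR fit without the block. Without the block DESeq2 called ALOX12, and edgeR without a filter on low counts called ALOX12, TBXA2R, ITGB3 and RAB27B. The uninduced S34F group has 1 library.

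Members too low to test in RNA had counts in the CLIP data, which the comparisons of RNA do not use. Summed over 7 eCLIP libraries, MYL9 had 705 counts (36 to 204 per library) and P2RY12 had 589 (37 to 158 per library), while their RNA counts per library were at most 1 and 5. P2RY12 lies within MED12L, which stood at 264 to 408 CPM in RNA, while MYL9 overlaps no expressed gene. The part of overlapping genes in these counts was not tested.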

How the results depend on the processing

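With the replicate block, in place of no pairing, members called went from 3 to 14 (genes from 356 to 4779) for S34F against WT, from 1 to 9 (119 to 4261) for S34F against Q157R, from 1 to 14 (418 to 4099) for induction in the S34F line and from 0 to 5 (0 to 150) for the difference of induction. The block moved genes called to 4 for Q157R against WT, 89 for induction in WT, 56 for induction in Q157R and 17 (from 9) in the heavy freCLIP fraction, and it changed no other member call.

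Without a filter on low counts, the same 4 comparisons called 14 members (2410 genes), 11 (2135), 11 (2992) and 8 (306). Q157R against WT gave 15 genes, induction in WT 1 member (130 genes), induction in Q157R 5 members (569 genes), S34F against WT before induction 63 genes, Q157R against WT before induction 2 members (119 genes), and freCLIP 11 genes in the light fraction (from 23) and 1 in the heavy. DESeq2 called 8 members (1612 genes), 6 (1341), 6 (1812) and 1 (27) in the same 4 comparisons, 3 genes for Q157R against WT, 34 for induction in WT, 1 member (75 genes) for induction in Q157R, and 141 and 35 genes in the light and heavy freCLIP fractions. The cause was not tested. RLE scaling moved no count of calls by over 1.5 times.

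Leaving out 1 library at a time left 0 to 0 members and 0 to 0 genes called in S34F against WT, S34F against Q157R and induction in the S34F line. It gave 6 to 28 genes in the light and 0 to 2 in the heavy freCLIP fraction, and a median log2 fold change of members of -0.57 to -0.53 for S34F against WT, beside -0.50 with all libraries. A group then reduced to 1 library is assumed to vary like the others. Among members called in the edgeR fits with the filter, with or without the block, no value reversed. GP6, called lower in S34F against Q157R without the filter (-0.80), ran from -1.42 to 0.33 when a library was left out. F13A1, called higher without the filter for induction in Q157R (2.12), stood at 3.75 CPM uninduced and at 1.9 and 31.5 CPM induced. With 2 libraries or fewer in each RNA group, calls rest on few residual degrees of freedom, and freCLIP depth of 38415 to 730996 gene counts limits what those libraries can show.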
